A study of Mus musculus with 48 samples.

Results

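An inflammatory gene set in vancomycin-treated mouse kidney was followed through Il1f6 (interleukin 36 alpha, now also called Il36a), Socs3, Relb, Icam1 and Ptgs2, which are 5 of 7859 genes that could be named in the array table and 5 of 5748 that were tested. They were chosen by their log2 intensity at 400 mg/kg, with results of these arrays in view, and the named probe set with the highest mean log2 intensity stood for each gene. The 48 kidneys came from female BALB/c mice without a stated genetic change. Vancomycin, a glycopeptide antibiotic with known kidney toxicity, or saline was injected daily for 7 days, and the mice were killed on day 8. By the intraperitoneal route (ip) the groups were saline, 50, 200 and 400 mg/kg, and by the intravenous route (iv) they were again saline, 50, 200 and 400 mg/kg, with 6 mice in each of the 8 groups and 1 mouse per Affymetrix array. The RNA came from a small piece of kidney, and the piece's region is not given in the labels.

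IL-36 alpha is a cytokine of the IL-1 family. It binds the receptor Il1rl2, which pairs with the shared chain Il1rap and signals to NF-kB and MAP kinases, and it has been described in injured tubular epithelium of mouse kidney. Relb is an NF-kB subunit of the non-canonical branch, in which Nfkb2 is processed after Map3k14 is activated. Icam1 is the endothelial and epithelial ligand of the leukocyte integrins LFA-1 and Mac-1, and Ptgs2 (cyclooxygenase 2) makes the precursor of the prostaglandins. Both are classical genes induced by NF-kB. Socs3 is induced by STAT3 and blocks the signal of gp130 receptors (Il6st) in a feedback loop.

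The promoters of 3 of the 5 genes are shown because STAT3 and NF-kB are the factors by which the genes are grouped. RefSeq (mouse build GRCm38.p6) gives the 250 bases before the gene start of Socs3 at chr11:117969367-117969616 on the minus strand, of Icam1 at chr9:21015690-21015939 on the plus strand and of Ptgs2 at chr1:150099781-150100030 on the plus strand. Capitals mark matches to the STAT motif TTCNNNGAA or to the NF-kB-type motif GGGNNNNNCC, searched on both strands, and no marked matches overlap.
Socs3: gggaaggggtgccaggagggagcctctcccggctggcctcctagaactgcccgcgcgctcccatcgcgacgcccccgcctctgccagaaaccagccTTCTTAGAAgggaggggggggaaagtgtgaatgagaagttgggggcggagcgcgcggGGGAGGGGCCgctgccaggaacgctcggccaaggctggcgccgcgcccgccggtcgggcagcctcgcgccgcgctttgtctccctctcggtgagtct
Icam1: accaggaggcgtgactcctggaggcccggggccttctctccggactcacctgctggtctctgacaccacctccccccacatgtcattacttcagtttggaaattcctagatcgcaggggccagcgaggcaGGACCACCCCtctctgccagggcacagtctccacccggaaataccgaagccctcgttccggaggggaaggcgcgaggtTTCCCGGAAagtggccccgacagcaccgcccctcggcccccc
Ptgs2: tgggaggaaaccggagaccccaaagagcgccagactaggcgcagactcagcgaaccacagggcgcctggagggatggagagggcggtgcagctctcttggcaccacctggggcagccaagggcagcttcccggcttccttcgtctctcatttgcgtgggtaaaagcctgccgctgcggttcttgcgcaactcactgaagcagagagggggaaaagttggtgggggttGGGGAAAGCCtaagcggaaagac
In Socs3 the STAT motif TTCTTAGAA lay 154 to 146 bases before the start and the NF-kB-type match GGGAGGGGCC 97 to 88 bases before it. In Icam1 the STAT motif TTCCCGGAA lay 42 to 34 bases before the start, and GGACCACCCC, which reads GGGGTGGTCC on the other strand, lay 120 to 111 bases before it. Ptgs2 had the NF-kB-type match GGGGAAAGCC 23 to 14 bases before the start and no TTCNNNGAA in these 250 bases. Of 32851 mouse promoter windows of the same length, 7.02% held TTCNNNGAA and 45.8% held GGGNNNNNCC, so the second motif is common. A match is a description of the letters and no evidence of binding. Stretches that depart from these patterns stay in lower case, so the capitals are no list of the known STAT or NF-kB sites of these genes. Il1f6 and Relb are named only.

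Every gene name below rests on a reconstructed order of the table, in which the values of 3 stretches (24.4% of 45101 rows) follow the identifiers at a constant offset. With the offset, 24 tubule marker genes had a median level of 10.91 (log2 intensity), against 6.07 under the names as listed. The median of the whole table was 3.47, and anything below it counts as background here, which makes fold changes that start there approximate. Array medians ran from 3.47 to 3.68 over the 24 ip arrays and from 3.34 to 3.55 over the 24 iv arrays. Between the ip and the iv saline groups 57.7% of genes were called different by limma (adjusted p under 0.05) with a median shift of 0.41 log2 units, and route and array batch cannot be told apart. That share and shift were 37.5% and 0.25 under median centring of each array, and 23.6% and -0.04 under quantile normalization. In 4 iv arrays, 1 of each iv group (mouse 1 in saline, 9 at 50, 27 at 200 and 44 at 400 mg/kg), the median was 3.47 to 3.55, against 3.34 to 3.43 in the other 20 iv arrays. Precision is limited by having 6 arrays in a group.

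At 400 mg/kg Il1f6, Socs3, Relb and Icam1 were far above saline by both routes, and Ptgs2 was above saline by the ip route alone. These are the levels for which the genes were chosen, so they are described without a test. The log2 fold change exceeded 1 in 5 of 5 genes at ip 400 mg/kg and in 4 of 5 at iv 400 mg/kg, where the share over all 5748 genes was 15.1% and 10.0%. The groups did not overlap in 5 of 5 genes by ip and in 4 of 5 by iv, and 24.1% and 15.1% of all genes lay wholly above saline. The median log2 fold change over all genes was 0.11 by ip and 0.09 by iv.

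**Figure D1:**
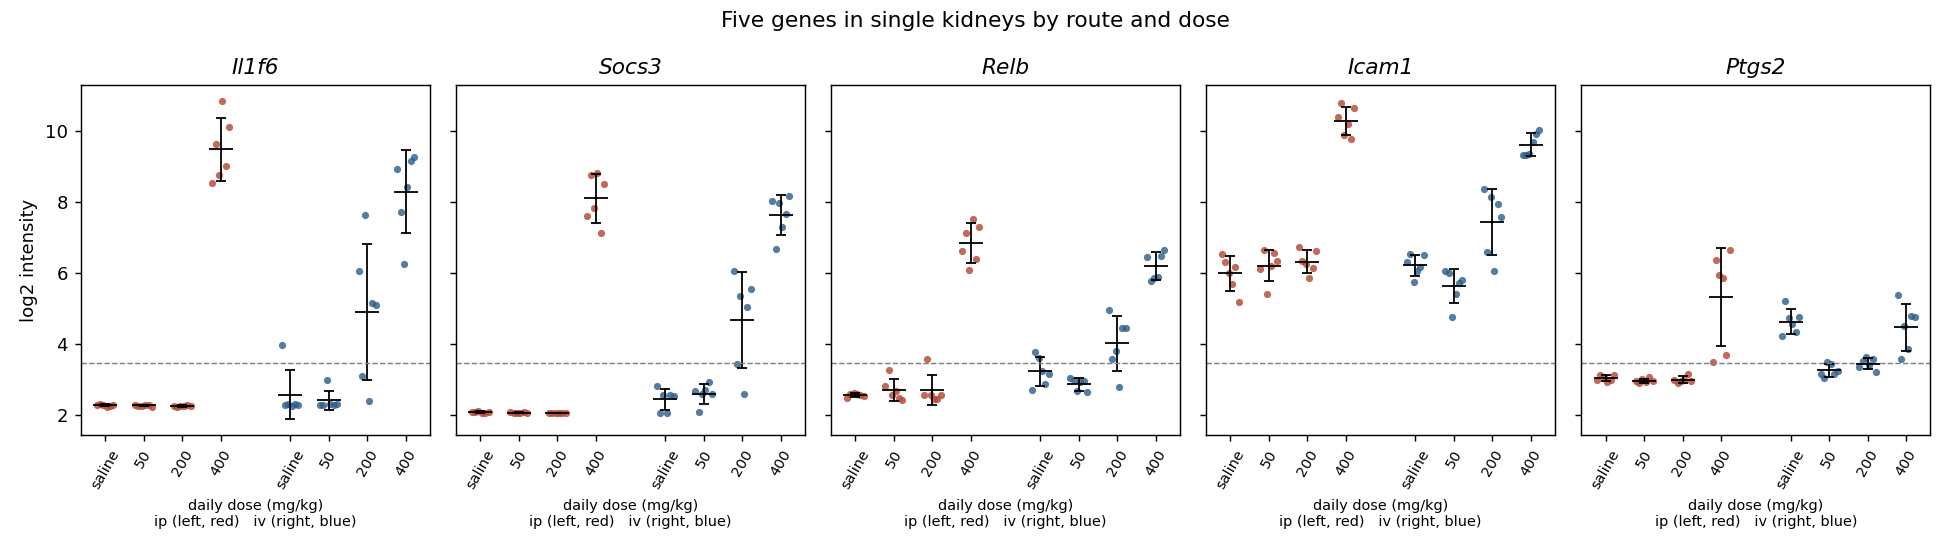
Log2 intensity (vertical axis) of the genes in each kidney by route and daily dose (horizontal axis). Points are mice, bars are the mean and SD of 6 mice, and the dashed line is the table median of 3.47. All 6 mice of ip 400 mg/kg lie above all 6 of ip saline in every panel, while in Ptgs2 the iv 400 and iv saline groups overlap.

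Il1f6 had the widest span of the set. In the 6 ip 400 mg/kg kidneys its log2 intensity was 8.53, 9.64, 8.76, 10.86, 9.02 and 10.13, against 2.23 to 2.3 (median 2.28) in ip saline. In the 6 iv 400 mg/kg kidneys it was 8.95, 7.73, 6.25, 8.43, 9.16 and 9.27, against 3.98 in mouse 1 and 2.25 to 2.3 in the other 5 mice of iv saline. Neither pair of groups overlapped, and mouse 45 with 6.25 was the lowest treated animal. The differences were 7.22 log2 units by ip and 5.74 by iv (SE 0.49 each). As saline kidneys were at background, the more cautious measure is the distance of the 400 mg/kg mean from the table median, which was 6.02 log2 units by ip and 4.83 by iv. With an offset of 16 added before log2, which damps values near background, the differences were 5.15 and 3.91.

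Socs3, the feedback inhibitor, was likewise at background in saline kidneys. It ranged from 7.12 to 8.81 (median 8.17) at ip 400 mg/kg, against 2.04 to 2.11 (median 2.07) in ip saline. By iv it ranged from 6.67 to 8.18 (median 7.82) at 400 mg/kg, against 2.06 to 2.8 (median 2.54) in saline. The groups were separate by both routes, with differences of 6.03 log2 units by ip and 5.21 by iv (SE 0.33 each), and the 400 mg/kg means stood 4.64 and 4.17 log2 units above the table median. With the offset of 16 the differences were 3.86 and 3.33.

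Relb, the NF-kB subunit, reached lower levels. It ranged from 6.09 to 7.52 (median 6.87) at ip 400 mg/kg, against 2.47 to 2.6 (median 2.56) in ip saline, and from 5.78 to 6.66 (median 6.18) at iv 400 mg/kg, against 2.69 to 3.76 (median 3.19) in iv saline. No treated mouse fell within its saline range. The differences were 4.29 log2 units by ip and 2.97 by iv (SE 0.25 each), or 2.58 and 1.81 with the offset of 16.

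Icam1, the adhesion ligand, was the only gene of the set above the table median in all 48 arrays, so its fold change starts from a measured level. It ranged from 9.79 to 10.79 (median 10.31) at ip 400 mg/kg, against 5.19 to 6.55 (median 6.09) in ip saline, and from 9.33 to 10.03 (median 9.54) at iv 400 mg/kg, against 5.74 to 6.53 (median 6.24) in iv saline. The groups did not overlap. The rise was 19.8-fold by ip (4.31 log2 units) and 10.5-fold by iv (3.4 log2 units, SE 0.27 each).

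Ptgs2, the prostaglandin synthase, was set apart by its spread and by its saline level. At ip 400 mg/kg it was 6.36, 5.94, 5.85 and 6.66 in 4 mice but 3.49 and 3.68 in mice 103 and 107, against 2.92 to 3.13 (median 3.03) in ip saline. All 6 treated mice were above the saline range, and 2 of them only just. At iv 400 mg/kg it was 5.37, 3.57, 4.51, 3.85, 4.78 and 4.76, against 4.23 to 5.22 (median 4.64) in iv saline. The iv groups overlapped, and the difference was -0.16 log2 units (SE 0.31), against 2.29 by ip. A second named probe set of Ptgs2 averaged 2.76 to 2.83 in every group, which is below the table median.

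At iv 200 mg/kg the set differed from iv saline, though not all genes in the same direction. Il1f6, Socs3, Icam1 and Relb were higher and Ptgs2 was lower than in iv saline. Ptgs2 averaged 3.44, against 4.63 in iv saline and 3.25 at iv 50 mg/kg. In ip saline and at ip 50 and ip 200 mg/kg it averaged 2.96 to 3.04. At iv 200 mg/kg 5 of 5 genes passed the limma test, where 7.36% of all genes did (6.07% higher and 1.29% lower). These tests share the iv saline arrays with the 400 mg/kg comparison that guided the choice of the genes. Il1f6 and Socs3 pass the filter on low values (above the table median in at least 6 arrays) only with the 400 mg/kg arrays, since outside them they exceed it in 5 and 4 arrays. Relb, Icam1 and Ptgs2 exceed it in 8, 36 and 10 of the other arrays. The p-values of Il1f6 and Socs3, and the count of 5 that includes them, are thus not independent of the choice of the genes.

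Il1f6 was 6.05, 3.09, 7.65, 2.39, 5.14 and 5.09 in the iv 200 mg/kg mice 25 to 30, and its rise was 2.34 log2 units (SE 0.49, limma adjusted p = 0.0013). Socs3 was 6.06, 3.43, 5.35, 2.58, 5.05 and 5.56 in the same mice, a rise of 2.25 log2 units (SE 0.33, limma adjusted p = 7.8e-06). Icam1 was 8.38, 6.58, 8.15, 6.07, 7.96 and 7.58, a rise of 1.23 log2 units or 2.35-fold (limma adjusted p = 0.0026). In all 3 genes mice 25, 27, 29 and 30 were above every iv saline mouse, mouse 26 was second lowest and mouse 28 lowest. Each SE and p rests on a spread pooled over all 8 groups, ip groups at the floor included. At iv 200 mg/kg, in iv saline and in ip saline the SD was 1.92, 0.69 and 0.02 in Il1f6. In Socs3 it was 1.36, 0.3 and 0.02. The SE and p of these genes are thus small beside the spread of the mice compared.

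Relb followed the same order at the low end, with 4.96, 3.57, 3.81, 2.78, 4.46 and 4.45 in mice 25 to 30. Its rise of 0.79 log2 units (SE 0.25) passed narrowly (limma adjusted p = 0.038). It no longer passed when 1 mouse was left out, for each of mice 1, 4, 5, 6, 25, 29 and 30 (adjusted p from 0.057 to 0.16), or without the 4 iv arrays with high medians (0.72, adjusted p = 0.13). Ptgs2 was lower in all 6 mice, at 3.2 to 3.63 (median 3.46), than in any iv saline mouse, as 0.748% of all genes were. It fell by 1.19 log2 units (SE 0.31, limma adjusted p = 0.011), which missed the threshold with the offset of 16 (-0.61, adjusted p = 0.052). Mouse 27 was highest and mouse 30 lowest in Ptgs2.

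**Figure D2:**
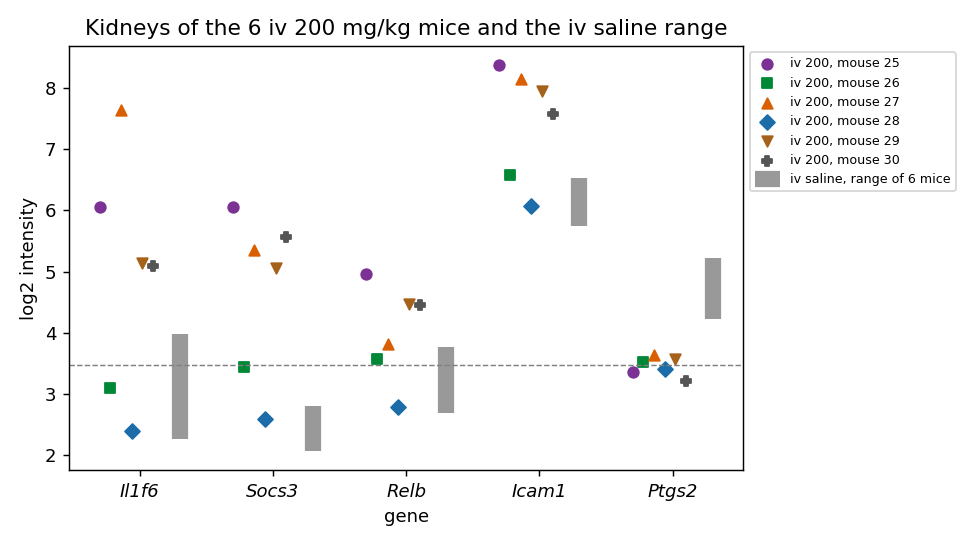
Log2 intensity (vertical axis) of the genes (horizontal axis) in the 6 iv 200 mg/kg mice, 1 symbol per mouse, with the iv saline range as a grey bar and the table median of 3.47 dashed. Mice 28 and 26 are the lowest in Il1f6, Socs3, Relb and Icam1, and in Ptgs2 all 6 mice lie under the saline bar.

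Markers of myeloid cells moved with Il1f6, Socs3, Relb and Icam1 in the same animals, but not with Ptgs2. Ptgs2 was 3.35 and 3.2 in mice 25 and 30, against 3.52 and 3.41 in mice 26 and 28. The summed linear intensity of 16 myeloid genes was 4350 in mouse 25, 3710 in mouse 27, 2480 in mouse 29 and 2950 in mouse 30, but 1100 in mouse 26 and 870 in mouse 28, against 697 to 824 in iv saline. Summed intensity of 11 proximal tubule genes ran from 31900 to 41200 in mice 25, 27, 29 and 30 and was 55500 in mouse 26 and 50700 in mouse 28. Of the myeloid genes 11 of 16 rose at iv 200 mg/kg, against 6.07% of all genes. Without the 4 that pass the filter only through the 400 mg/kg arrays, 10 of 12 rose. In whole tissue a change in the number of cells of a type and in RNA per cell cannot be told apart, and the part of these cells in the results was not tested.

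At iv 50 mg/kg 1 of 5 genes passed, against 0.539% of all genes. Ptgs2 was 3.03 to 3.5 (median 3.19) at iv 50 mg/kg, below all 6 iv saline mice, as 0.505% of all genes were. It fell by 1.39 log2 units (SE 0.31, limma adjusted p = 0.014). Without iv saline mouse 2 the call was lost (-1.27, adjusted p = 0.064), as it was with the offset of 16 (-0.69, adjusted p = 0.17). Icam1 was 4.77 to 6.05 at iv 50 mg/kg, against 5.74 to 6.53 in iv saline, a difference of -0.6 log2 units that did not pass (adjusted p = 1.0). Il1f6, Socs3 and Relb overlapped saline and lay below the table median in all 6 mice.

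By the ip route the set stayed near its saline levels at 50 and 200 mg/kg. In limma 0 of 5 genes passed at either dose, 0 had an unadjusted p under 0.05, and 0.087% of all genes passed at each. Il1f6 and Socs3 stayed at background, at 2.22 to 2.28 and 2.04 to 2.06 at ip 200 mg/kg, levels that have no order among themselves. Icam1, which was measurable throughout, was 5.42 to 6.64 at 50 mg/kg and 5.87 to 6.72 at 200 mg/kg, against 5.19 to 6.55 in ip saline, and its differences were 0.23 and 0.34 log2 units (SE 0.27). Relb was at 3.56 in mouse 86 at ip 200 mg/kg and at 2.44 to 2.56 in the other 5 mice. The summed myeloid markers were at 936 to 1350 at ip 200 mg/kg, against 717 to 1330 in ip saline.

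The step between the upper doses was measured in both routes. Between ip 400 and ip 200 mg/kg the log2 difference was 7.24 in Il1f6, 6.05 in Socs3, 4.15 in Relb, 3.97 in Icam1 and 2.34 in Ptgs2, with every ip 400 mouse above every ip 200 mouse in 5 of 5 genes, as in 23.5% of all genes. Between iv 400 and iv 200 mg/kg it was 3.4, 2.96, 2.18, 2.16 and 1.03, with every iv 400 mouse above every iv 200 mouse in Socs3, Relb and Icam1, as in 3.22% of all genes. These differences use the 400 mg/kg arrays and carry no test.

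The routes were compared by the dose effect by ip minus that by iv. At 200 mg/kg 1 of 5 genes passed in limma, against 0.974% of all genes. Il1f6 and Socs3 pass the filter on low values only through the arrays of the highest dose, by which they were chosen. Their p-values and this count are thus not independent of that choice. Socs3 differed by -2.27 log2 units (SE 0.46, adjusted p = 0.006), and its ip 200 mg/kg kidneys were all at background. With the offset of 16 it was -1.08 (adjusted p = 0.08). Il1f6 differed by -2.36 (SE 0.69, adjusted p = 0.083), which passed without mouse 1, 26 or 28 (adjusted p = 0.049, 0.019 and 0.0045). Icam1 differed by -0.9 (adjusted p = 0.32), Relb by -0.65 (adjusted p = 0.47) and Ptgs2 by 1.14 (adjusted p = 0.24), and none of these 3 passed. At 50 mg/kg 0 of 5 genes passed, 2 had an unadjusted p under 0.05 (Icam1 and Ptgs2), and 0.191% of all genes passed.

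At 400 mg/kg the route difference rests on the arrays by which the genes were chosen, so it is described without a test. It was 2.45 log2 units in Ptgs2 (SE 0.44), 1.48 in Il1f6 (SE 0.69), 1.31 in Relb (SE 0.35), 0.91 in Icam1 (SE 0.39) and 0.82 in Socs3 (SE 0.46). All 5 estimates were larger by ip, but each effect is measured from the saline group of its own route. Ip saline minus iv saline was -1.6 in Ptgs2, -0.67 in Relb, -0.35 in Socs3, -0.29 in Il1f6 and -0.23 in Icam1. Apart from Icam1 these genes were below the table median in every ip saline mouse, so their route differences are approximate. Under quantile normalization the route difference of Relb was 0.8.

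Ptgs2 and Relb also differed between the saline groups. In ip saline Ptgs2 was 2.92 to 3.13, against 4.23 to 5.22 in iv saline, a difference of -1.6 log2 units (limma adjusted p = 3.7e-05). Relb was 2.47 to 2.6 in ip saline, against 2.69 to 3.76 in iv saline, a difference of -0.67 (adjusted p = 0.019, or 0.059 without iv saline mouse 2). With the offset of 16 the Relb difference was -0.22 and not called (adjusted p = 0.19). Only 2 iv saline and 0 ip saline mice exceeded the table median in Relb, so most of these values are background. In both genes the groups were separate, with 2.4% of all genes wholly lower in ip saline, while Il1f6 (-0.29, adjusted p = 0.62), Socs3 (-0.35, adjusted p = 0.36) and Icam1 (-0.23, adjusted p = 0.48) overlapped. Thus 2 of 5 genes were called lower in ip saline, while 2.57% of all genes were called lower and 55.1% higher. Under quantile normalization the split turned round, with 12.7% called lower and 10.8% higher, and 3 of 5 genes were called lower, as Icam1 was added (-0.73, adjusted p = 0.043). At 400 mg/kg itself Ptgs2 averaged 5.33 ± 1.38 by ip and 4.47 ± 0.66 by iv, and Relb 6.84 ± 0.56 by ip and 6.19 ± 0.39 by iv (SD, n = 6 each), with overlapping ranges.

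Ordered by group mean, Il1f6, Socs3, Relb and Icam1 all ran ip 400, iv 400 and iv 200 mg/kg, followed by the remaining 5 groups. Adjacent groups overlapped everywhere except between iv 400 and iv 200 mg/kg, which were separate in Socs3, Relb and Icam1. Ptgs2 ran ip 400 mg/kg, iv saline, iv 400, iv 200 and iv 50 mg/kg, then the lower ip groups, and each overlapped its neighbour.

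The pathways around the genes were read from 7 lists drawn up from general knowledge, though with earlier results of these arrays known, and the 5 genes were left out of them. Of their 74 tested genes 11 pass the filter only through the 400 mg/kg arrays, so that they had to differ there, and they are left out of the counts at 400 and iv 200 mg/kg and given by their values alone. Of the other 63, 43 rose and 7 fell at ip 400 mg/kg with a median of 0.78 log2 units, and 34 rose and 8 fell at iv 400 mg/kg with a median of 0.53. Over all genes 36.3% rose and 25.1% fell by ip (median 0.11), and 30.7% rose and 19.0% fell by iv (0.09). At iv 200 mg/kg 12 of 63 rose and 2 fell, where 6.07% of all genes rose and 1.29% fell. The counts of each list below are to be read beside these same shares. Some genes are shared between lists, so the counts of the lists are not independent of each other. Birc3 and Nfkb2 are in both NF-kB lists. Bcl3 and Tnfrsf1a are among the NF-kB subunits and regulators and among the genes known to be raised by STAT3. Cd44 is among the genes known to be raised by NF-kB and the leukocyte adhesion genes. In limma 0 of 74 were called at ip 50 or ip 200 mg/kg, with 1 and 2 at an unadjusted p under 0.05, and 0.087% of all genes were called at each. At iv 50 mg/kg 3 of 74 fell, where 0.505% of all genes did. These were Cebpb, Cebpd and Nfkbiz (Cebpd is named after its values were seen).

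**Figure D3:**
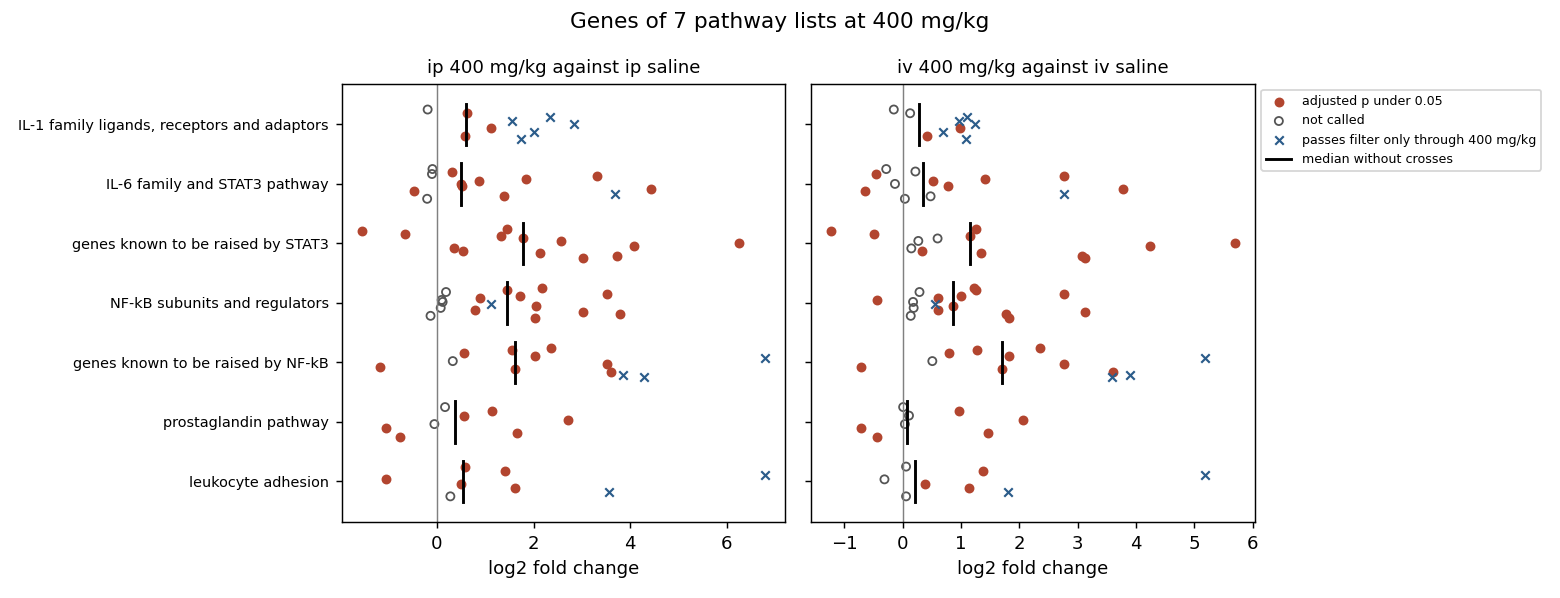
Log2 fold change (horizontal axis) of each tested gene of the 7 lists (vertical axis) at ip 400 mg/kg against ip saline, left, and at iv 400 mg/kg against iv saline, right. Filled points passed at an adjusted p under 0.05, open points did not, crosses pass the filter only through the 400 mg/kg arrays, and vertical bars are list medians without the crosses. The lists of genes known to be raised by STAT3 and by NF-kB have medians of 1.78 and 1.62 by ip and of 1.16 and 1.71 by iv.

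Among ligands, receptors and adaptors of the IL-1 family 5 of 9 tested genes pass the filter only through the 400 mg/kg arrays, which are Il1rl2, Il18r1, Il1f9, Il1rn and Irak3. Of the other 4, 3 rose at ip 400 mg/kg (median 0.6), 2 at iv 400 mg/kg (0.27) and 0 at iv 200 mg/kg. Among these the shared receptor chain Il1rap rose by 0.59 by ip and 0.42 by iv (limma adjusted p = 0.0049 and 0.049). The IL-36 receptor Il1rl2 averaged 4.39 ± 0.61 at ip 400 mg/kg and 2.39 ± 0.05 in ip saline (SD, n = 6 each), a difference of 2.0 log2 units, and its difference by iv was 0.69. Il1f9, a further IL-36 cytokine, was 1.56 and 0.97 log2 units above saline by ip and by iv, and Il1rn, the IL-1 receptor antagonist, 1.75 and 1.08. By ip Il18r1, a receptor chain for IL-18, was 2.83 above saline, and Irak3, an inhibitor of the shared adaptor complex, 2.35. The IL-36 antagonist gene Il1f5 and the cytokine gene Il1f8 did not pass the filter on low values.

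In the IL-6 family and STAT3 pathway 8 of 12 genes rose and 1 fell at ip 400 mg/kg (median 0.51), and 5 rose and 2 fell at iv 400 mg/kg (0.35). The iv counts are near the shares over all genes, of which 30.7% rose and 19.0% fell. Osmr, the oncostatin M receptor chain that pairs with gp130, averaged 10.36 ± 0.45 at ip 400 mg/kg and 5.94 ± 0.25 in ip saline (SD, n = 6 each), a rise of 4.42 log2 units (limma adjusted p = 2.2e-15). It was the only gene of this list that rose at iv 200 mg/kg, by 2.0 (adjusted p = 6.3e-05). Stat3 itself rose by 1.85 by ip and 1.42 by iv. The gp130 cytokine Lif, which passes the filter only through the 400 mg/kg arrays, was 3.68 and 2.77 above saline. Socs2, a relative of Socs3, rose by 3.31 and 2.77. The gp130 gene Il6st rose by 1.38 by ip, and its 0.48 by iv did not pass (adjusted p = 0.26). Jak1 rose by 0.52 and 0.77, Jak2 rose by 0.5 by ip alone, Il6ra passed by neither route, and Lifr fell by 0.48 and 0.64.

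Of 13 genes known to be raised by STAT3, 11 rose and 2 fell at ip 400 mg/kg (median 1.78), and 8 rose and 2 fell at iv 400 mg/kg (1.16). Lrg1, a secreted leucine-rich glycoprotein, rose by 6.25 by ip, 5.69 by iv and 3.23 at iv 200 mg/kg. Fga, the fibrinogen alpha chain, rose by 4.08, 4.24 and 2.81. Vegfa, an endothelial growth factor, fell by 1.55 and 1.22 at 400 mg/kg by ip and iv, and Ccnd1, a cyclin, fell by 0.65 and 0.49.

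Among NF-kB subunits and regulators 10 of 15 genes rose and 0 fell at ip 400 mg/kg (median 1.45), and 10 rose and 1 fell at iv 400 mg/kg (0.87). Nfkb2, whose product p52 pairs with Relb, averaged 6.97 ± 0.43 at ip 400 mg/kg and 4.93 ± 0.21 in ip saline (SD, n = 6 each). It rose by 2.04 by ip, 1.82 by iv and 0.92 at iv 200 mg/kg (limma adjusted p = 4.4e-12, 2.6e-10 and 0.002). Map3k14, the kinase of the non-canonical branch, which passes the filter only through the 400 mg/kg arrays, was 1.13 and 0.55 above saline at 400 mg/kg by ip and iv. Birc3, an inhibitor of that kinase's build-up, rose by 3.51 by ip, 2.76 by iv and 0.92 at iv 200 mg/kg. Nfkbiz, an NF-kB cofactor, rose by 3.79 by ip and 1.78 by iv, with a route difference of 2.01 (limma adjusted p = 0.00052). Like Ptgs2 it was lower at iv 50 mg/kg than in iv saline, with a difference of -1.43 (adjusted p = 0.00063).

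Of 9 genes known to be raised by NF-kB, 7 rose and 1 fell at 400 mg/kg by each route (median 1.62 by ip and 1.71 by iv), and 5 rose at iv 200 mg/kg (0.65). Left out of these are Cd44, Ccl5 and Ccl20, a chemokine, which pass the filter only through the 400 mg/kg arrays. Cd44, a hyaluronan receptor, averaged 9.75 ± 0.8 at ip 400 mg/kg and 2.95 ± 0.05 in ip saline (SD, n = 6 each), and its difference was 6.79 by ip and 5.18 by iv. The chemokine Ccl5 was 4.28 and 3.59 above saline. Sod2, the mitochondrial superoxide dismutase, fell by 1.18 by ip and 0.71 by iv.

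In the prostaglandin pathway around Ptgs2 4 of 8 genes rose and 2 fell at ip 400 mg/kg (median 0.37), and 3 rose and 2 fell at iv 400 mg/kg (0.08), where 36.3% and 30.7% of all genes rose and 25.1% and 19.0% fell. Ptger4, a receptor for prostaglandin E2, rose by 2.72 by ip, 2.07 by iv and 1.32 at iv 200 mg/kg (limma adjusted p = 0.00015 at that dose), where Ptgs2 was lower. Ptgds, the prostaglandin D synthase, rose by 1.65 and 1.46 at 400 mg/kg. Tbxas1, thromboxane synthase, fell by 1.06 and 0.71, and Ptges2, a prostaglandin E synthase, by 0.76 and 0.44.

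Among 6 leukocyte adhesion genes 4 rose and 1 fell at ip 400 mg/kg (median 0.54), and 3 rose and 0 fell at iv 400 mg/kg (0.22), with Itgam and Cd44 left out by the same rule. Itgam, the alpha chain of the Icam1 ligand Mac-1 and also a myeloid marker, was 3.55 above saline by ip and 1.8 by iv. Jam3, a junction protein, fell by 1.06 by ip, and its -0.31 by iv did not pass. Itgal, the alpha chain of LFA-1, did not pass the filter.

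Cell type markers moved widely at the dose at which the set was highest. Of 12 myeloid markers that pass the filter without the 400 mg/kg arrays 12 rose at ip 400 and 11 at iv 400 mg/kg, where 36.3% and 30.7% of all genes rose. The summed intensity of all 16 was 12800 to 30500 at ip 400 mg/kg, against 717 to 1330 in ip saline, and 5680 to 15600 at iv 400 mg/kg, against 697 to 824 in iv saline. All 11 proximal tubule markers fell by both routes, where 25.1% of all genes fell by ip and 19.0% by iv, with sums of 15300 to 26500 at ip 400 mg/kg, against 68200 to 74900 in ip saline, and of 13300 to 41300 at iv 400 mg/kg, against 43000 to 65500 in iv saline. Beside the same shares, 11 of 13 loop, distal tubule and collecting duct markers fell by ip and 12 by iv, with sums of 24700 to 37200 at ip 400 mg/kg, against 57800 to 65900 in ip saline. Of 9 endothelial markers, without Vwf, which passes the filter only through the 400 mg/kg arrays, 0 rose and 2 fell by each route.

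Neutrophil markers summed to 24.0 to 69.5 at ip 400 mg/kg, against 24.5 to 25.6 in ip saline, and 2 of 4, Elane and Ngp, were below the table median in all 48 arrays. T and NK markers summed to 61.1 to 114 at ip 400 mg/kg, against 62.1 to 70.8 in ip saline, and 5 of 9, among them Cd2 and Zap70, were below it in all arrays. B and plasma cell markers summed to 1870 to 2430, against 1130 to 1460 in ip saline, and 4 of 8, among them Ms4a1 and Cd79a, were below it throughout. Most of that sum was Xbp1, with log2 means of 10.86 at ip 400 mg/kg and 10.27 in ip saline. Keratinocytes are a known source of IL-36 cytokines. Keratinocyte and urothelial markers summed to 266 to 1820 at ip 400 mg/kg, against 77.2 to 86.0 in ip saline. Of these 11 markers 7 were below the table median in all arrays, Krt14, Krt1 and Upk2 included. Krt20 passes the filter only through the 400 mg/kg arrays (9.4 ± 1.22 at ip 400 mg/kg and 2.77 ± 0.05 in ip saline, SD, n = 6 each). Most of the summed intensity of these markers at ip 400 mg/kg was Krt20. Of the other 2 tested markers 0 rose there (median -0.19 log2 units), so the sum stands largely for Krt20 and not for a cell type. The part of any of these cells in the levels of the set was not tested.

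Across the 48 arrays the likeness between genes of the set was described by Pearson's r, without a test, since all arrays share the dose groups and the route shift. Il1f6, Socs3, Relb and Icam1 correlated with each other at 0.958 to 0.977, and with Ptgs2 at 0.653 to 0.73. The genes most like Il1f6 were Slc34a2, a phosphate transporter (0.985), Ncf4, a subunit of the phagocyte oxidase (0.983), and Krt20, a keratin (0.982). Socs3 was most like Ncf4 (0.98), Fcgr1, an Fc receptor (0.979), and Ms4a6b (0.977). Relb was most like P2ry6, a nucleotide receptor (0.977), Cd48, a leukocyte surface protein (0.975), and Socs3 (0.973). Icam1 was most like Birc3 (0.971), Cp, ceruloplasmin (0.971), and Ptprc, the leukocyte antigen CD45 (0.97).

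Ptgs2 had a looser company, with Penk, proenkephalin (0.863), Slc37a1 (0.855) and Cebpb, a transcription factor of inflammation (0.849). Cebpb shared its high iv saline level, with 7.39 ± 0.47 in ip saline and 9.46 ± 0.45 in iv saline (SD, n = 6 each). Its effect by iv was -2.0 log2 units at 50 mg/kg (limma adjusted p = 3e-06), -1.18 at 200 mg/kg (adjusted p = 0.0036) and 0.27 at 400 mg/kg (adjusted p = 0.43). As Cebpb is named here for its correlation with Ptgs2 over these same arrays, the shared pattern and these p-values are no independent support.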

How the data were processed

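Biotin-labelled cRNA of 48 kidneys was measured on single-channel Affymetrix arrays, per the labels. The deposited table holds linear intensity values of 45101 probe sets, which per the submitters' processing notes came from GCRMA (version not given in the sources used here). The log2 of the deposited intensity was taken without an offset. GCRMA leaves undetected probe sets at a nearly constant floor, so values there carry no order.

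Values were named by position: rows 751 to 3250 took the identifier at an offset of 64 rows, rows 5001 to 11750 at -47 and rows 34251 to 36000 at -16168. Within these stretches pairs of probe sets of the same gene correlated in level at 0.434, 0.546 and 0.605, against 0.131, 0.205 and 0.164 as listed. This named 10198 rows. The row with the highest mean stood for its gene, and genes above 3.47 in at least 6 arrays were tested. A planned test of the 5 genes' route difference at 400 mg/kg was replaced by a description, since those arrays chose the genes.

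All 8 groups were fitted together with limma 3.58.1 in R 4.3.3 (eBayes with trend, 40 residual degrees of freedom, two-sided), with Benjamini-Hochberg adjustment over 5748 genes and a threshold of 0.05. The spread of a gene was thus pooled over all 8 groups for every comparison, also where some groups lay at the floor. Motif searches and figures used Python 3.11.15. On simulated data for the iv 200 mg/kg comparison, 89 of 100 genes changed by 1 log2 unit and 99 of 100 changed by 2 were recovered, with 8 false calls. The simulation gave each gene the same normal spread in all 8 groups. Genes whose spread differs between groups, such as Il1f6 and Socs3, are thus not covered by it. The members and gene lists were chosen with earlier results of these data known, and named list genes were fixed partners or had the largest changes at ip 400 mg/kg. Of 39 fixed partners 17 were tested, 5 did not pass the filter and 17 are not analysed here, among them Il6, Il1b and Rela. Alternatives were other scalings, filters, weights, an offset and leaving out arrays. Mice carry separate numbers and were taken as independent.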

Additional observations from a re-analysis of the deposited data

Results flagged for a closer look

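In 3 of 40 sets of 6 values (5 genes in 8 groups) the highest mouse stood apart from the other 5 by Dixon's criterion, which chance does in about 1 in 20 sets. Il1f6 was 3.98 in mouse 1 of iv saline, with the next mouse at 2.3, and 2.98 in mouse 9 of iv 50 mg/kg, with the next at 2.31. Both mice are among the 4 iv arrays with high medians, and the value of mouse 9 is below the table median. Relb was 3.56 in mouse 86 of ip 200 mg/kg, with the next mouse at 2.56.

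The dose effect by ip minus that by iv differed from 0 in limma for Socs3 at 200 mg/kg (-2.27 log2 units, adjusted p = 0.006, or 0.08 with an offset of 16). Route and array batch cannot be told apart in this difference. Socs3 passes the filter on low values only through the arrays of the highest dose, by which it was chosen, so its p-value is not independent of that choice.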

How the results depend on the processing

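Of the 5 genes, the number called was compared across scalings, filters, weights, an offset and left-out arrays, and no called difference changed sign under any of them. In the main fit Il1f6 and Socs3 are counted only because the arrays of the highest dose let them pass the filter on low values. Adding 16 to the values before log2 lowered the number to 0 at iv 50 mg/kg, 3 at iv 200 mg/kg, 1 between saline groups and 0 for the route difference at 200 mg/kg. It also ended the calls of Relb (adjusted p = 0.12) and Ptgs2 (0.052) at iv 200 mg/kg. Array weights gave 1 call for the route difference at 50 mg/kg (Ptgs2) and 4 at 200 mg/kg, while the share of all genes called went up too, to 0.887% with weights, against 0.191% without, at 50 mg/kg and to 12.4%, against 0.974%, at 200 mg/kg. Between saline groups quantile normalization gave 3 calls, with Icam1 added, and called 1353 of 5744 genes, against 3316 of 5748, and median centring called 2152. At iv 200 mg/kg 423 of all genes were called, against 1398 with array weights, 184 with the iv route fitted alone and 250 without the 4 iv arrays with high medians. A block for the 4 iv arrays with high medians, chosen after seeing the data, gave 2 calls at 200 mg/kg, with Il1f6 added (adjusted p = 0.043).

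Leaving out 1 array at a time gave 0 to 1 calls at iv 50 mg/kg and 1 to 2 between saline groups (the lower values without iv saline mouse 2), and 4 to 5 at iv 200 mg/kg. For the route difference it gave 1 to 2 at 200 mg/kg (2 without mouse 1, 26 or 28). The route difference at 400 mg/kg has no count of calls, since the genes were chosen on those arrays. Relb at iv 200 mg/kg was not called under median centring (adjusted p = 0.063), no filter (0.054), the iv route fitted alone (0.11), or without mouse 1, 4, 5, 6, 25, 29 or 30 (0.057 to 0.16). Of all 74 pathway list genes, leaving out 1 array at a time, 58 to 61 were called at ip 400 and 49 to 54 at iv 400 mg/kg. These counts include the 11 genes that pass the filter only through the 400 mg/kg arrays and had to differ there. In the main fit 61.3% and 49.7% of all genes were called. No paired analysis was possible because the groups share no mouse numbers. Signal near background limits Il1f6, Socs3, Relb and Ptgs2 in saline kidneys.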

Other observations

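Within the ip 400 mg/kg group the mice with low Ptgs2, 103 and 107, were also lowest in the gene most like it, Penk, at 3.1 and 3.07, against 4.71 to 6.15 in the other 4 mice. In Cebpb they were at 9.19 and 8.97, and the other 4 at 10.22 to 10.64. In Socs3 they were at 7.6 and 7.12, the lowest of the 6. In Il1f6 they were at 8.53 and 9.02, and mouse 105, at 8.76, lay between them. In Icam1 mouse 107 was the lowest of the 6 at 9.79, while mouse 103 was at 10.4. In Relb mice 103 and 107 were at 6.61 and 6.39, and mouse 105 was lower, at 6.09. In mice 103 and 107 the summed myeloid markers were at 12800 and 13500, the others at 19900 to 30500, and the keratinocyte and urothelial markers at 266 and 343, the others at 930 to 1820. The latter sum was mostly Krt20, at 7.67 and 8.13 (log2) in these mice and 9.7 to 10.78 in the others. Proximal tubule markers were at 25700 and 26500, the others at 15300 to 23000. The part of these cells in the pattern was not tested. These mice were picked after their values were seen, so the comparison carries no test. Penk and Cebpb were chosen for their correlation with Ptgs2 over these same arrays, so their low values in these mice are no independent support.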
